A study of Mus musculus with 6 samples.

Results

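NRF2, encoded by Nfe2l2, is a transcription factor that switches on genes of the antioxidant and detoxification response. In unstressed cells KEAP1 holds NRF2 and hands it to a ubiquitin ligase for degradation. When oxidants or electrophiles modify KEAP1, or when the autophagy receptor p62 (Sqstm1) occupies it, NRF2 accumulates and binds antioxidant response elements together with small MAF proteins. Its targets import cystine, make glutathione, reduce thioredoxin and peroxiredoxins, and detoxify quinones. In dendritic cells this redox system is known to bear on maturation and cytokine output.

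The group described here holds 10 genes, chosen by symbol: Nfe2l2, Keap1, Sqstm1, Slc7a11, Gclc, Gclm, Txnrd1, Srxn1, Prdx1 and Nqo1. All 10 were found among the 24346 genes listed per library, and 9 were among the 11518 genes tested. Nqo1 was below the expression filter. RNA sequencing had been done on CD11c+ cells of mouse spleen, enriched by magnetic sorting, in 3 libraries treated with IL-33 and 3 treated with PBS. IL-33 is an alarmin cytokine of the IL-1 family, and PBS is its vehicle. The labels name no strain, age, sex, dose or time, do not say whether treatment was given in the animal or in culture, and do not say that replicates came from separate animals. The spread that the p-values rest on is thus that of the 6 libraries as prepared, and part or all of it may be technical.

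Levels are in FPKM, by name fragments scaled to transcript length and to mapped fragments, as the authors deposited them. How the libraries were scaled against each other is not given in the sources used here. Each change is the difference in mean log2(FPKM + 1), IL-33 minus PBS, fitted with limma and given with its standard error (SE). Benjamini-Hochberg adjustment took in every tested gene. The scale understates changes of genes with low FPKM. A change was called at an adjusted p under 0.05. By that rule 53.6% of all tested genes changed (28.0% rose and 25.5% fell), so a call by itself was common in this comparison. The median change also went up with mean level, in bands set after the values were seen. It was -0.13 under 5 FPKM, -0.07 at 5 to 20 FPKM, 0.15 at 20 to 100 FPKM and 0.44 at 100 FPKM or more. Shares and medians over all tested genes given below are not matched for level.

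The sorted cells held transcripts that mark dendritic cells, with Itgax, which encodes CD11c, at 272, 300 and 276 FPKM in the IL-33 libraries and 228, 249 and 247 FPKM in the PBS libraries. Of 14 dendritic cell markers 4 rose (28.6%) and 7 fell (50%), and their sum was 21932 to 23702 FPKM with IL-33 and 15092 to 15874 FPKM with PBS. Most of that sum was Cd74 (means of 13977 FPKM with IL-33 and 9741 FPKM with PBS) and H2-Ab1 (7511 and 4643 FPKM), which both rose. The sum thus says little about the other markers, of which more fell than rose. Zbtb46, a factor that defines conventional dendritic cells, had 22.5, 22.3 and 25.8 FPKM with IL-33 and 36.1, 37.6 and 36.9 FPKM with PBS. Markers of other cell types were also detected and differed between the groups. The summed level of 8 eosinophil markers was 870 to 1238 FPKM with IL-33 and 216 to 310 FPKM with PBS. Most of it was Ear2 (means of 773 FPKM with IL-33 and 216 FPKM with PBS), and Ccr3 and Il5ra did not pass. The summed level of 9 neutrophil markers was 1218 to 2455 FPKM with IL-33 and 479 to 791 FPKM with PBS. Most of it was S100a8 and S100a9, and Cxcr2 did not pass. The sum of 8 plasma cell markers was 444 to 481 FPKM with IL-33 and 155 to 210 FPKM with PBS. Sums of 9 T cell markers (113 to 123 FPKM with IL-33, 251 to 440 FPKM with PBS) and of 10 NK cell markers (249 to 391 FPKM with IL-33, 643 to 817 FPKM with PBS) were lower with IL-33. The sums of 12 macrophage markers (3353 to 4596 FPKM with IL-33, 2186 to 3817 FPKM with PBS) and of 10 B cell markers (370 to 500.4 FPKM with IL-33, 337 to 819 FPKM with PBS) overlapped. The sum of 9 monocyte markers was 1918 to 2957 FPKM with IL-33 and 1420 to 1883 FPKM with PBS. Of these 9, 3 rose and 3 fell (33.3% each, near the 28.0% and 25.5% of all tested genes). Without Chil3, left out after its values were seen (1274, 509 and 172 FPKM with IL-33, 11.5, 14.6 and 9.73 FPKM with PBS), the sums overlapped, at 1618 to 1746 FPKM with IL-33 and 1408 to 1873 FPKM with PBS. By the same test all 9 T cell and all 10 NK cell markers fell, while 6 of 8 eosinophil, 7 of 8 tested neutrophil and 7 of 8 plasma cell markers rose. Those that rose include Epx, Ear1, Ear6, Mpo and Tnfrsf17, which passed the filter only through the IL-33 libraries, where they were high. No marker in these lists was at 0 in every library, although Epx, Ear1, Ear6 and Elane were listed at 0 in 1 PBS library each. In bulk libraries fewer cells of a type and less RNA per cell cannot be told apart, and the part of these cell types in the changes below was not tested. The sum of all FPKM also differed, at 778391 to 841884 in the IL-33 libraries and 614522 to 641412 in the PBS libraries, so values under other scalings are given where they end a call, turn a direction or move a named gene's change by over 1.5 times. With equal totals 11.1% of all tested genes rose and 50.7% fell, and their median change was -0.29.

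The 250 bases before each annotated start were searched on both strands for the core of the antioxidant response element, TGACNNNGC, and for TGACTCA, the site of AP-1 factors that can overlap it. The search also covered the 50 bases after the start. RefSeq promoter entries of GRCm38.p6 were found for 9 members (11 starts, since Txnrd1 has 3). TGACNNNGC was present at 5 of the 9 members (Nfe2l2, Gclm, Txnrd1, Srxn1 and Prdx1), against 14% of 27025 genes and 12.4% of all 32851 promoter windows of the same length. TGACTCA was present at 2 of the 9 (Srxn1 and Prdx1), against 5.95% of genes and 5.20% of windows. The windows with matches before the start are shown on the gene's own strand, 5′ to 3′, because these members include Srxn1, which rose, and Nfe2l2, which fell. Capitals mark the matches, and a match on the opposite strand reads as the reverse complement. At Prdx1 a match to TGACTCA lies inside the match to TGACNNNGC.
Nfe2l2, 240 bases before the start, chr2:75704854-75704913, minus strand: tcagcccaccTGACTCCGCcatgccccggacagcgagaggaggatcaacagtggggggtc
Gclm, 134 bases before the start, chr3:122245397-122245456, plus strand: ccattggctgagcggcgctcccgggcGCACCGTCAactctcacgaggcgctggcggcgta
Txnrd1, 92 bases before its second start, chr10:82859088-82859147, plus strand: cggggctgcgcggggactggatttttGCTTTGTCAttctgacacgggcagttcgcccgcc
Srxn1, 102 bases before the start, chr2:152105396-152105455, plus strand: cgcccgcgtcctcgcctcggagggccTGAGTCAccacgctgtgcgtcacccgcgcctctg
Srxn1, 45 bases before the start, chr2:152105453-152105512, plus strand: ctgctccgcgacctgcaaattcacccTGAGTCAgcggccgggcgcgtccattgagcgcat
Prdx1, 237 bases before the start, chr4:116685349-116685408, plus strand: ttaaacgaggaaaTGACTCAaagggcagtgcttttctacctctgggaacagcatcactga
Prdx1, 133 bases before the start, chr4:116685440-116685499, plus strand: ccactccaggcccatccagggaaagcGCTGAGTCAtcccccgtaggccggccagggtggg
The TGACNNNGC match of Srxn1 lies after the start, in the transcribed part, and is not printed. No match says only that these letters are not in the window searched, and a match is not evidence of a bound site.

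Treatment with IL-33 went with less transcript of the factor itself and with more transcript of 5 other members. Nfe2l2 fell by 0.33 on the log2 scale, whereas Srxn1, Slc7a11, Sqstm1, Prdx1 and Gclm rose by 0.35 to 1.13. Of the 9 tested members 5 rose, 1 fell and 3 (Keap1, Txnrd1 and Gclc) did not pass. Slc7a11 is counted although it passed the filter only through the IL-33 libraries. The median change of the tested members was 0.35, against 0.01 over all tested genes. It was 0.04 with equal totals, against -0.29 over all tested genes, and 0.23 without PBS replicate 1. The members that rose made up 55.6% of those tested, against 28.0% of all tested genes. For 7 of the 10 members every IL-33 library lay above every PBS library. These 7 include Slc7a11 and also Nqo1, which was not tested. Among tested genes that pattern was seen in 32.7%. Nfe2l2 showed the opposite order, seen in 30.9% of tested genes.

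**Figure D1:**
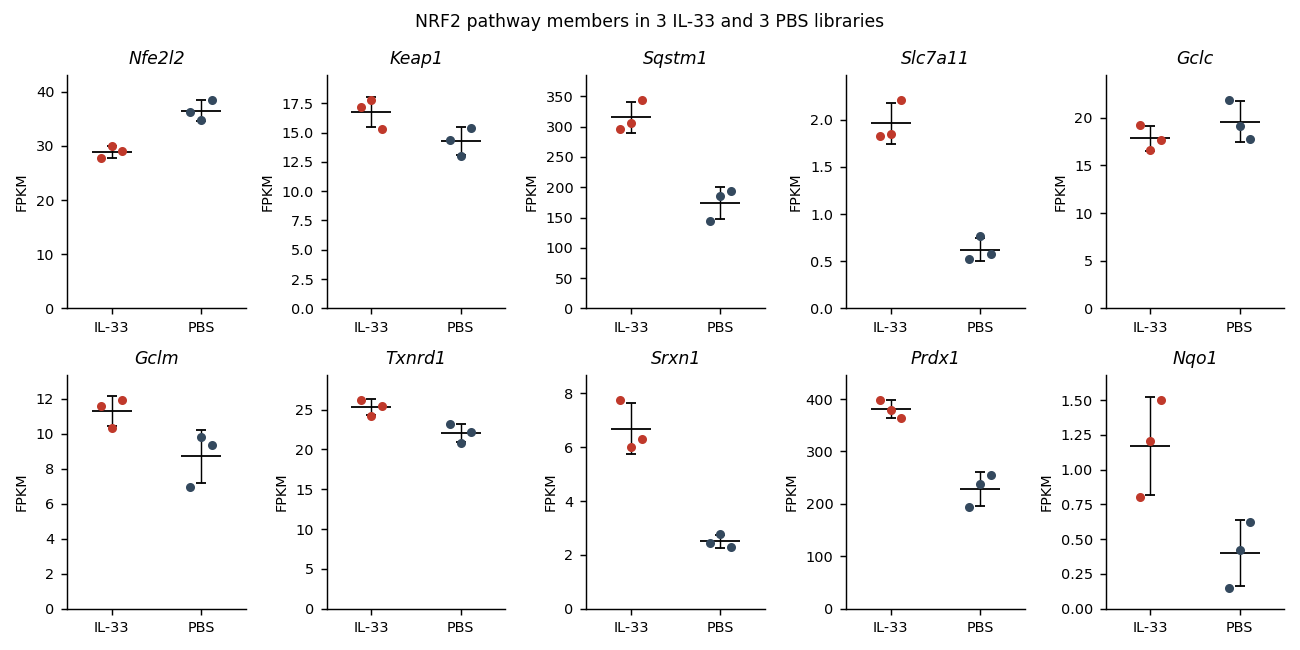
FPKM of the 10 members in each library, with IL-33 left of PBS; points are libraries, and the horizontal mark and bar are the mean and SD (n = 3 per group). Sqstm1 and Prdx1 have the tallest scales, with IL-33 means of 315 and 381 FPKM, while the Nqo1 means are 1.17 FPKM with IL-33 and 0.399 FPKM with PBS.

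Among the regulators of the pathway 1 fell, 1 rose and 1 did not pass. Exons of Keap1, Sqstm1 and Gclm overlap those of other annotated genes (Gm16754, Mrnip, and Gm17494 and Gm6061), and reads in the overlaps cannot be told apart. Nfe2l2 (chromosome 2, 75675513 to 75704641, minus strand, mm10) had 27.8, 29.9 and 29.1 FPKM with IL-33, against 36.2, 34.8 and 38.5 FPKM with PBS. All 3 IL-33 libraries were below all 3 PBS libraries, and the means were 28.9 ± 1.08 and 36.5 ± 1.89 FPKM (SD, n = 3 each). The change of -0.33 (SE 0.07) passed with limma (adjusted p = 0.00615), and it was -0.66 with libraries rescaled to equal FPKM totals, where the median of all genes moved by -0.30.

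Keap1, the sensor that keeps NRF2 low (chromosome 9, 21229730 to 21239361, minus strand), had 17.2, 17.8 and 15.3 FPKM with IL-33 and 14.4, 13 and 15.4 FPKM with PBS. The groups overlapped by 1 pair of libraries, IL-33 replicate 3 and PBS replicate 3. Its change of 0.22 (SE 0.09) did not pass with limma (adjusted p = 0.0724, 95% interval 0.01 to 0.43 before adjustment). It passed without IL-33 replicate 3 (0.28) and with library weights (0.29), and turned to -0.10 with equal totals.

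Sqstm1 encodes p62, which carries ubiquitinated cargo to autophagosomes, binds KEAP1 and is itself an NRF2 target (chromosome 11, 50199366 to 50210827, minus strand). It had 296, 305 and 345 FPKM with IL-33, against 144, 185 and 193 FPKM with PBS. The lowest IL-33 library was above the highest PBS library, and the means differed 1.81-fold. The change was 0.86 (SE 0.12), with a limma adjusted p of 0.00154. It was 0.46 with cyclic loess, 0.47 with quantile normalization and 0.52 with equal totals, and was called with each. Tested genes of 100 FPKM or more on average, 893 in number, had a median change of 0.44, a set defined after the values were seen.

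Glutathione synthesis begins with cystine, which the antiporter xCT brings into the cell. Slc7a11, the light chain of xCT (chromosome 3, 49892526 to 50443614, minus strand), had 1.82, 1.85 and 2.21 FPKM with IL-33, against 0.529, 0.763 and 0.578 FPKM with PBS. Every IL-33 library was more than double any PBS library, and the group means differed 3.15-fold at levels low for these cells. The change was 0.87 (SE 0.11), with a limma adjusted p of 0.00118, and 1.52 with a pseudocount of 0.1. Slc7a11 passed the expression filter only through the IL-33 libraries, since no PBS library reached 1 FPKM.

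The heavy chain of the same antiporter, Slc3a2, which also serves other amino acid transporters, had 108, 116 and 129 FPKM with IL-33 and 69.9, 87.6 and 88.0 FPKM with PBS. Its change of 0.52 (SE 0.11, limma adjusted p = 0.00679) was called as deposited and not with equal totals (0.18), quantile normalization (0.25) or cyclic loess (0.22). Slc7a11 thus stood far below its partner in both groups: the FPKM ratio of Slc7a11 to Slc3a2 was 0.0169, 0.0160 and 0.0171 with IL-33 and 0.0076, 0.0087 and 0.0066 with PBS. A ratio of 2 genes in 1 library does not depend on a single factor applied to every gene of that library. It can change under scalings that vary with level, such as quantile normalization and cyclic loess, and was not computed under them. The ratio of Slc7a11 to Slc3a2 was 1.14 higher with IL-33 on the log2 scale (SE 0.12) and the groups did not overlap. With a pseudocount of 1 in both genes the difference was 0.35.

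The ligase that joins glutamate and cysteine has a catalytic and a modifier subunit, of which only the modifier passed the test. Gclc, the catalytic subunit (chromosome 9, 77754535 to 77794485, plus strand), had 19.2, 16.6 and 17.6 FPKM with IL-33 and 21.9, 19.1 and 17.8 FPKM with PBS. The groups overlapped, and the change of -0.13 (SE 0.10, limma adjusted p = 0.293, 95% interval -0.35 to 0.10) did not pass, although it did with equal totals (-0.45).

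Gclm, the modifier subunit that makes the enzyme more efficient (chromosome 3, 122245557 to 122270732, plus strand), had 11.6, 10.4 and 11.9 FPKM with IL-33, against 6.98, 9.83 and 9.35 FPKM with PBS. The groups were separate, but IL-33 replicate 2 and PBS replicate 2 were close to each other. The change was 0.35 (SE 0.13) and passed narrowly with limma (adjusted p = 0.0492). The call was lost under 11 of 17 alternatives, including every removal of 1 library except that of PBS replicate 2. Its adjusted p ran from 0.0281 to 0.778 over all alternatives, and its change was 0.04 with equal totals and 0.21 without PBS replicate 1. The ratio of Gclc to Gclm was 1.66, 1.60 and 1.48 with IL-33 and 3.13, 1.94 and 1.90 with PBS, a log2 difference of -0.52 (SE 0.24). PBS replicate 1 stood apart from the other PBS libraries in this ratio, and without it the difference was -0.29.

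In the thioredoxin branch Srxn1 and Prdx1 rose and Txnrd1 did not pass. Srxn1 encodes sulfiredoxin, which restores overoxidized peroxiredoxins (chromosome 2, 152105516 to 152111376, plus strand). It had 7.76, 6.01 and 6.31 FPKM with IL-33, against 2.46, 2.76 and 2.30 FPKM with PBS. The 3 IL-33 libraries lay well above the PBS libraries, with means of 6.69 ± 0.93 and 2.51 ± 0.23 FPKM (SD, n = 3 each), a ratio of 2.67. The change of 1.13 (SE 0.11, limma adjusted p = 0.000483) lay at percentile 97.5 of all tested genes. It was 0.86 with equal totals, 1.21 with quantile normalization and 1.27 with cyclic loess.

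Prdx1, an abundant thiol peroxidase that removes hydrogen peroxide and is a substrate of sulfiredoxin (chromosome 4, 116685544 to 116700822, plus strand), had 398, 379 and 365 FPKM with IL-33, against 193, 237 and 256 FPKM with PBS. The groups were separate by more than 100 FPKM. The change was 0.74 (SE 0.11), with a limma adjusted p of 0.00171. It was 0.33 with cyclic loess or quantile normalization and 0.40 with equal totals, and was called with each. The FPKM ratio of Srxn1 to Prdx1 was 0.0195, 0.0159 and 0.0173 with IL-33 and 0.0127, 0.0117 and 0.0090 with PBS, 0.67 higher with IL-33 on the log2 scale (SE 0.17), and 0.39 higher with a pseudocount of 1 in both genes.

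Txnrd1, the cytosolic selenoenzyme that reduces thioredoxin with NADPH (chromosome 10, 82833951 to 82897712, plus strand), had 26.2, 24.2 and 25.5 FPKM with IL-33 and 23.1, 20.8 and 22.2 FPKM with PBS. The groups did not overlap, yet the change was small at 0.19 (SE 0.07) and missed the threshold with limma (adjusted p = 0.0523). It was called with a filter of 5 FPKM (0.19) and with library weights (0.20), and turned to -0.14 with equal totals. Its substrate gene Txn1 rose, at 268, 272 and 248 FPKM with IL-33 and 150, 156 and 185 FPKM with PBS (change 0.69, SE 0.09, limma adjusted p = 0.00128). The Txn1 change was 0.35 with equal totals and 0.30 with quantile normalization or cyclic loess. The ratio of Txnrd1 to Txn1 was 0.0978, 0.0891 and 0.1025 with IL-33 and 0.1548, 0.1335 and 0.1205 with PBS, a log2 difference of -0.49 (SE 0.12).

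Nqo1, the quinone reductase often used to read NRF2 activity (chromosome 8, 107388225 to 107403206, minus strand), was barely present. It had 0.804, 1.21 and 1.5 FPKM with IL-33, against 0.152, 0.419 and 0.625 FPKM with PBS. The IL-33 libraries were all above the PBS libraries, but only IL-33 replicates 2 and 3 reached 1 FPKM. It was therefore not tested, and without an expression filter it was higher with IL-33 by 0.63 (SE 0.17, limma adjusted p = 0.0287 over 17265 genes).

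**Figure D2:**
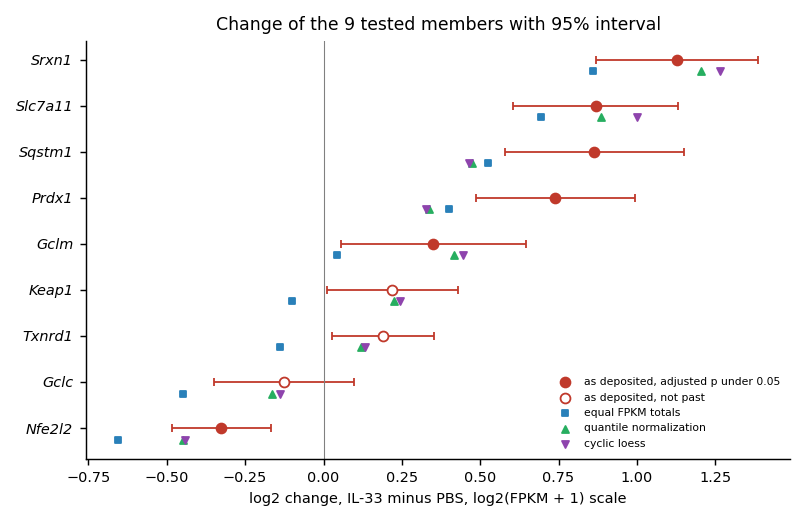
Log2 change (IL-33 minus PBS, log2(FPKM + 1) scale) of the 9 tested members as deposited, with its unadjusted 95% interval, and under 3 other scalings. Srxn1, Slc7a11, Sqstm1 and Prdx1 lie above 0 and Nfe2l2 below 0 under all 4 scalings, whereas Keap1 and Txnrd1 change sign with equal FPKM totals.

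In order of level with IL-33 the members ran Prdx1, Sqstm1, Nfe2l2, Txnrd1, Gclc, Keap1, Gclm, Srxn1, Slc7a11 and Nqo1, on the FPKM scale, which is per length. Gclc (17.8 ± 1.33 FPKM) and Keap1 (16.8 ± 1.28 FPKM) did not differ beyond their spread with IL-33. With PBS the order was the same, and the ranges of Txnrd1 (22.1 ± 1.17 FPKM) and Gclc (19.6 ± 2.10 FPKM) overlapped, as did those of Slc7a11 (0.623 ± 0.124 FPKM) and Nqo1 (0.399 ± 0.237 FPKM; SD, n = 3 each). The lowest Prdx1 and the highest Sqstm1 value with PBS were both 193 FPKM to 3 digits.

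The levels of the factor and its repressors were also set against each other within each library. The FPKM ratio of Nfe2l2 to Keap1 was 1.62, 1.68 and 1.90 with IL-33 and 2.52, 2.68 and 2.50 with PBS, a log2 difference of -0.57 (SE 0.08). Bach1, a repressor that competes with NRF2 for the same DNA elements, had 21.6, 26.5 and 26.3 FPKM with IL-33 and 22.7, 21.8 and 19.6 FPKM with PBS. Its own change of 0.20 (SE 0.10, limma adjusted p = 0.128) did not pass, except without IL-33 replicate 1 (0.29), and was -0.13 with equal totals. The ratio of Nfe2l2 to Bach1 was 1.29, 1.13 and 1.10 with IL-33 and 1.59, 1.59 and 1.97 with PBS, a log2 difference of -0.54 (SE 0.12). For each of the 6 ratios computed the groups did not overlap, and the exact two-sided permutation p was 0.1 (0.1 adjusted over the 6), the smallest that 3 against 3 libraries allow. None of the ratios could therefore pass a threshold of 0.05.

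**Figure D3:**
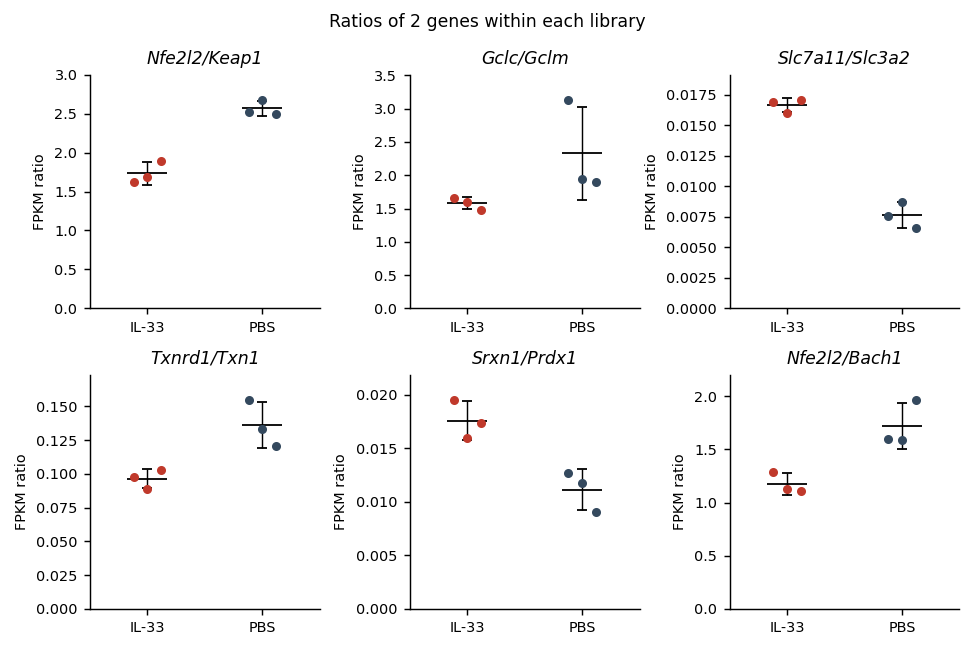
FPKM ratios of 6 gene pairs within each library, with IL-33 left of PBS; points are libraries, and the mark and bar are the mean and SD (n = 3 per group). The ratios of Slc7a11 to Slc3a2 and of Srxn1 to Prdx1 are higher in all 3 IL-33 libraries, and the other 4 are lower.

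Around these members, other known NRF2 targets mostly rose. Of 30 listed, 22 were tested, 17 rose (77.3%, against 28.0% of all tested genes), 1 fell and 4 did not pass, with a median change of 0.52. The 28.0% is not matched for level. Over all tested genes the median change was -0.13 under 5 FPKM and -0.07 at 5 to 20 FPKM. It was 0.15 at 20 to 100 FPKM and 0.44 at 100 FPKM or more, and the tested targets lay in each of these bands. The median of the targets was 0.18 with equal totals. With equal totals 11 rose and 3 fell, where 11.1% of all tested genes rose and 50.7% fell. The counts were 14 and 2 after quantile normalization (22.1% and 25% of all tested genes), and 13 and 2 with cyclic loess (23.7% and 23%). Idh1, the cytosolic isocitrate dehydrogenase that makes NADPH, had 74.2, 64.7 and 59.0 FPKM with IL-33 and 25.4, 32 and 30.2 FPKM with PBS (change 1.15, SE 0.11, limma adjusted p = 0.000489). Tkt and Pgd of the pentose phosphate pathway rose by 0.95 (SE 0.08) and 0.86 (SE 0.08), against 0.58 for Tkt with cyclic loess and 0.52 for Pgd with equal totals. The listed target that fell was the efflux pump gene Abcc1 (-0.22, SE 0.07, limma adjusted p = 0.0315), named because of its value. Its call was lost under the replicate block and without any 1 IL-33 library or PBS replicate 2, when no listed target fell. It was also lost without PBS replicate 1, when Hmox1 was the 1 listed target that fell.

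Hmox1, the haem oxygenase gene that is a classical target and a marker of iron-recycling splenic macrophages, did not pass. It had 552, 474 and 643 FPKM with IL-33 and 485, 739 and 762 FPKM with PBS (change -0.23, SE 0.19, limma adjusted p = 0.327). The groups overlapped because PBS replicate 1 was low. Without PBS replicate 1 the fall was called (-0.44, limma adjusted p = 0.0324), as it was with equal totals (-0.57), quantile normalization (-0.67) and cyclic loess (-0.70).

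Among the partners and rivals of NRF2, 3 of 8 rose (37.5%, against 28.0% of all tested genes) and 1 fell, with a median change of 0.22. With equal totals 1 rose and 3 fell, with a median of -0.07, where 11.1% of all tested genes rose and 50.7% fell. The small MAF gene Maff had 46.2, 45.3 and 55.5 FPKM with IL-33, against 19.2, 25.3 and 23.1 FPKM with PBS (change 1.09, SE 0.12, limma adjusted p = 0.000692). Mafk rose by 0.39 (SE 0.10), a call that was lost with equal totals (0.06), quantile normalization (0.23) and cyclic loess (0.25). Bach2, a repressor of B and T lymphocytes, had 1.82, 2.18 and 1.79 FPKM with IL-33 and 7.75, 4.30 and 2.75 FPKM with PBS. Its fall of 0.93 (SE 0.28) was called with limma (adjusted p = 0.0246) and not without IL-33 replicate 1 or 3 or PBS replicate 2 (-0.97 to -0.90) or without an expression filter. It was -0.61 without PBS replicate 1. PBS replicate 1, the library highest in Bach2, also had the highest sum of 10 B cell markers, 819 FPKM. That sum was 448 and 337 FPKM in PBS replicates 2 and 3. In the IL-33 libraries, all lower in Bach2 than any PBS library, it was 500.4, 437 and 370 FPKM. The part of B or T cells in the Bach2 change was not tested.

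As deposited, the machinery that degrades NRF2 was split, with 2 of 10 genes higher (20%) and 4 lower (40%). The median change of the 10 was -0.14, and over all tested genes 28.0% were higher and 25.5% lower. With equal totals 0 were higher and 8 lower, where 50.7% of all tested genes were lower. After quantile normalization 0 of the 10 rose and 2 fell, where 22.1% of all tested genes rose and 25% fell. Cyclic loess gave the same counts, where 23.7% of all tested genes rose and 23% fell. Under these 2 scalings falls were thus no more frequent in this list than among all tested genes. Cul3, the scaffold of the KEAP1 ligase, had 45.1, 50.5 and 54.3 FPKM with IL-33, against 60.9, 67.8 and 64.3 FPKM with PBS (change -0.36, SE 0.09, limma adjusted p = 0.0103), and its change was -0.69 with equal totals. Btrc, an adaptor of the KEAP1-independent route, fell by 0.35 (SE 0.09), not called with quantile normalization (-0.27), cyclic loess (-0.21) or without IL-33 replicate 2 (-0.29), and -0.61 with equal totals. Nedd8, the ubiquitin-like activator of cullins, rose by 0.46 (SE 0.08) as deposited, with no call with equal totals (0.12), quantile normalization (0.07) or cyclic loess (0.05).

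As deposited, most tested genes rose in the list of other glutathione enzymes and in that of thioredoxin, peroxiredoxin, superoxide dismutase and catalase genes. Of 25 other glutathione enzymes 22 were tested, 14 rose (63.6%, against 28.0% of all tested genes) and 1 fell, with a median change of 0.63. The 14 include Chac1, which passed the filter only through the IL-33 libraries. With equal totals 12 rose and 3 fell, with a median of 0.30, where 11.1% of all tested genes rose and 50.7% fell. Gpx3, a secreted glutathione peroxidase, had 8.54, 6.96 and 7.16 FPKM with IL-33, against 1.56, 1.77 and 2.01 FPKM with PBS (change 1.62, SE 0.11, limma adjusted p = 0.000154). Gsto1 rose by 1.06 (SE 0.08), or 0.70 with cyclic loess, and the glutaredoxin gene Glrx by 1.10 (SE 0.10). Of 19 other thioredoxin, peroxiredoxin, superoxide dismutase and catalase genes 17 were tested, 12 rose (70.6%) and 0 fell, with a median of 0.47. With equal totals 7 rose and 3 fell, with a median of 0.14, against the same 11.1% and 50.7% of all tested genes. The peroxiredoxin of the endoplasmic reticulum, Prdx4, which secretory cells such as plasma cells use heavily, had 52.6, 52.6 and 45.5 FPKM with IL-33, against 17.9, 20.6 and 21.2 FPKM with PBS (change 1.29, SE 0.09). Prdx2 rose by 1.05 (SE 0.10) and the mitochondrial Txn2 by 0.79 (SE 0.08), against 0.68 for Prdx2 with cyclic loess and 0.46 for Txn2 with equal totals. Plasma cell and neutrophil marker sums were higher in the same libraries, and their part in these rises was not tested.

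The companions of p62 in autophagy were mixed, with 4 of 9 higher (44.4%, against 28.0% of all tested genes) and 1 lower (median 0.15). With equal totals 3 were higher and 4 lower, where 11.1% of all tested genes were higher and 50.7% lower. The ATG8 genes Gabarap and Gabarapl1 rose by 0.90 (SE 0.11) and 0.87 (SE 0.10), against 0.47 for Gabarap with cyclic loess and 0.53 for Gabarapl1 with equal totals. Map1lc3b rose by 0.47 (SE 0.07), which was not called with equal totals (0.13) or cyclic loess (0.15). The phagocyte NADPH oxidase, the main enzymatic source of superoxide in these cells, was split by subunit. Of its 7 genes 4 rose (57.1%, against 28.0% of all tested genes) and 1 fell, with a median of 0.46, and 0.12 with equal totals. The GTPase gene Rac1 rose by 0.67 (SE 0.08), and by 0.28 with quantile normalization. The catalytic subunit gene Cybb went the other way, at 90.0, 105 and 91.9 FPKM with IL-33 and 144, 166 and 146 FPKM with PBS (change -0.66, SE 0.09, limma adjusted p = 0.0013). Its change was -0.99 with cyclic loess.

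**Figure D4:**
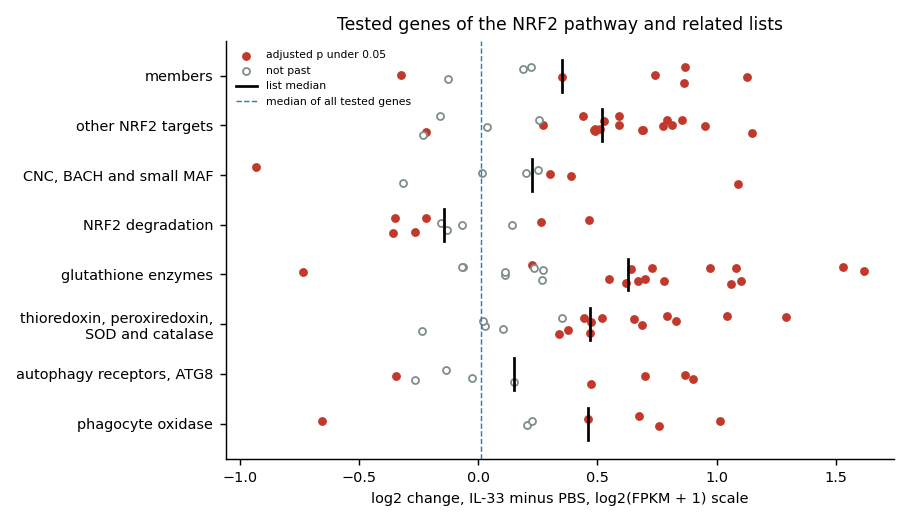
Log2 change (IL-33 minus PBS, log2(FPKM + 1) scale) of each tested gene in the member list and 7 related lists; filled points have an adjusted p under 0.05, black bars are list medians and the dashed line is the median of all tested genes. Medians of other NRF2 targets (0.52) and other glutathione enzymes (0.63) lie to the right of that line (0.01), and that of the degradation machinery (-0.14) to its left.

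The genes most like Srxn1 over the 6 libraries, by root mean square difference of centred log2(FPKM + 1) profiles, were Tspan17, Gstm5 and Plk2, each at 0.07. Those most like Nfe2l2 were Hibch (0.02), Zhx3 (0.03) and Atg16l1 (0.03). Gstm5 passed the filter only through the IL-33 libraries (2.89, 1.73 and 1.95 FPKM, against 0.388, 0.623 and 0.319 FPKM with PBS). Zhx3 passed only through the PBS libraries (1.39, 1.32 and 1.48 FPKM, against 0.803, 0.900 and 0.877 FPKM with IL-33). Tspan17, for example, had 12.0, 10.5 and 11.2 FPKM with IL-33, against 4.6, 4.64 and 4.49 FPKM with PBS.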

How the data were processed

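Per the labels, 6 libraries (3 IL-33, 3 PBS) of poly(A)-selected, strand-marked RNA from magnetically sorted splenic cells were sequenced. The authors deposited FPKM, 1 table per library. Per the submitters' processing notes the build was mm10 and the tools were Cuffnorm 2.2.1, SAMtools 0.1.19, Bowtie2 2.2.3 and TopHat2 2.0.13. No source used here gives the annotation, the scaling between libraries or whether counting used strand. In these values, reads where exons of Keap1, Sqstm1 and Gclm overlap those of other genes thus cannot be told apart. Of those genes Gm16754, Mrnip and Gm17494 lie on the opposite strand and Gm6061 on that of Gclm. None of them is listed by these names in the deposited values. FPKM give no counts and the absolute depth is unknown. Steps between low values gave relative depths of 0.946 to 1.22 times that of PBS replicate 1.

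Genes of at least 1 FPKM in at least 3 of 6 libraries were fitted as log2(FPKM + 1) with limma 3.58.1 (R 4.3.3), a trended prior variance and no block. The fit was tested on simulated data. Positions came from GENCODE M21 (GRCm38, also called mm10) and promoters from RefSeq. Tables and figures used Python 3.11.15 and pandas 2.3.3. Alternatives were other pseudocounts, filters, scalings, variance settings, library weights, a replicate block and leaving out each library. The members and lists were chosen with earlier results of these data known. Named genes were all members, Hmox1, Txn1, Slc3a2, Bach1, up to 3 genes of smallest adjusted p per list, and 3 genes most like each of 2 members. Ly6g and Trac were not matched. A gene that this rule names in 1 list is not reported here.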

Additional observations from a re-analysis of the deposited data

How the results depend on the processing

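Depth could not be read from FPKM, so counting error of low genes such as Nqo1 and Slc7a11 is unknown. Srxn1, Slc7a11, Sqstm1 and Prdx1 were called higher and Nfe2l2 lower under every alternative in which they were tested (a filter of 5 FPKM removed Slc7a11). The members called higher numbered 4 to 6, and 4 to 5 with 1 library left out. With equal FPKM totals 2 members were lower, other NRF2 targets numbered 11 higher and 3 lower, and the changes of Keap1 (-0.10), Txnrd1 (-0.14) and Bach1 (-0.13) turned negative, as the median of all genes moved by -0.30 and 1280 genes rose and 5840 fell (18% of calls were rises, against 52.4% as deposited). Quantile normalization and cyclic loess each gave 2 lower other targets, and leaving out 1 library gave 0 to 1. A pseudocount of 1 in both genes changed the log2 difference of Slc7a11/Slc3a2 to 0.35 and that of Srxn1/Prdx1 to 0.39. With a replicate block 4 members were higher and 1 lower, and 15 other targets higher and 0 lower, among 2806 higher and 2452 lower genes. Replicate numbers were not treated as pairs, since same-numbered libraries deviated together by correlations of 0.08, -0.05 and 0.09 only, and not every library matched its own number best. Causes of these differences were not tested.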
